A study of Homo sapiens with 12 samples.

Results

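The heme synthesis enzymes were followed across stable K-562 lines treated with a MYB siRNA or a control siRNA. Some of these lines already carried a wild-type or an altered MYB construct. The 9 genes, in pathway order, are SLC25A38, ALAS1, ALAS2, ALAD, UROS, UROD, CPOX, PPOX and FECH. They were chosen by name for their place in the pathway, but with earlier results of these data known. Each matched 1 of the 60658 gene entries, and all 9 were among the 13393 genes with a value of at least 1 FPKM in at least 3 of the 12 libraries. FPKM divides the fragments of a gene by its transcript length and by the size of the library, so levels can be compared between genes.

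K-562 cells derive from a human erythroleukemia and express globins of the embryo and fetus. The D152V_Rescue group was a stable line carrying the 3xTY-D152V construct and treated with si2992, the MYB siRNA. The MYB-WT_Rescue group was a stable line carrying 3xTY-hcM and treated with the same siRNA. The MYB_KnockDown group carried the 3xTY1 construct and received si2992, and the siRNA_Control group carried 3xTY1 and received a non-targeting siGENOME siRNA. All lines were selected with G418 at 200 µg/ml, RNA was taken 24 hours after transfection, and each group has 3 libraries. Each rescue construct is represented by 1 stable line, so effects of the MYB form, of the MYB level and of the line cannot be told apart. The labels do not give the promoter of the constructs or say whether a line is a clone or a pool. The design text speaks of 3 experiments without saying that they used separate cultures, so p-values measure the spread between these libraries.

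Heme synthesis starts and ends in the mitochondrion, with its middle steps in the cytosol. An aminolevulinate synthase joins glycine and succinyl-CoA: ALAS1 is the form used in most tissues and ALAS2 the form of red cell precursors. SLC25A38 carries glycine into the mitochondrion. ALAD then makes the pyrrole porphobilinogen, UROS closes the uroporphyrinogen ring, and UROD trims its acetate side chains. CPOX acts by oxidation on propionate side chains, PPOX oxidises the ring, and FECH inserts iron. In red cell precursors the pathway feeds hemoglobin, and ALAS2 is known as a target of the erythroid factor GATA1. MYB is a transcription factor of blood progenitors.

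MYB itself averaged 91.1 ± 8.11 FPKM in D152V_Rescue, 124 ± 8.87 in MYB-WT_Rescue, 30.2 ± 3.59 in MYB_KnockDown and 120.1 ± 14.2 in siRNA_Control libraries (SD, n = 3 each). It fell by 1.96 on the log2 scale in MYB_KnockDown against siRNA_Control libraries (limma adjusted p = 3.03e-05). Between the rescue lines MYB was 0.44 lower in D152V_Rescue, without overlap of libraries (limma adjusted p = 0.0494, lost in 16 of 20 alternatives). The MYB value does not separate the introduced from the cell's own transcript. FPKM totals were 672616 to 798362 in 11 libraries and 1215578 in MYB_KnockDown replicate 1. Its r with the remaining knockdown replicates was 0.929 and 0.930, whereas every other pair within a group reached at least 0.983. Comparisons with the knockdown rest on it, and many, but not all, results that its omission moves are given with and without it. Read depth is unknown. K-562 markers were present in every library, with GATA1 at 80.8 to 138 FPKM and TAL1 at 33.1 to 57.5 FPKM. The monocyte list held 3.65 to 27.7 FPKM in sum and the epithelial list 32.1 to 126, but these sums were nearly all LYZ and EPCAM. CD14 reached at most 0.547, KRT5 at most 0.087 and the hepatocyte list at most 1.22 FPKM in sum, and MS4A1 was listed at 0 in all 12 libraries.

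The ALAS2 promoter is shown because ALAS2 is 1 of the 2 genes whose calls between the rescue lines held in every alternative, and it holds a match to the GATA sequence. It is the 250 bases before the start of ALAS2 on the minus strand, chrX:55030978-55031227 in GRCh38, from NCBI RefSeq (GRCh38.p14). Capitals mark TTATCT, the reverse complement of the GATA sequence AGATAA, at bases -127 to -122 counted from the start of transcription.
ALAS2: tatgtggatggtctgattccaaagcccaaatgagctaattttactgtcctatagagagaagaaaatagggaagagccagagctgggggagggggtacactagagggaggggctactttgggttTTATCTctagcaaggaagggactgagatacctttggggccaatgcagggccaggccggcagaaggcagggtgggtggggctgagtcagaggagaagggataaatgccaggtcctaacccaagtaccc

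PPOX is the other such gene, and its promoter is described by 2 windows. In the first, on the plus strand, 30 bases at chr1:161166269-161166298 hold CGGTTA, the reverse complement of the MYB core TAACNG, at -145 to -140. In the second, 30 bases at chr1:161166571-161166600 hold TTATCT at -63 to -58. Capitals mark the motif in both.
PPOX, first window: tcggcgctaacaCGGTTAacctccagctct
PPOX, second window: agggtgtggcccTTATCTgcacccagcaga

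UROD and CPOX are shown because they hold the same motifs. Neither gene was called in the fit of all 12 libraries to log2(FPKM + 1), which is the setting of every result given without a named alternative. UROD was called in some alternatives, given beside its values. UROD holds the MYB core next to its start, within chr1:45012224-45012253 on the plus strand at -7 to -2. CPOX holds TTATCT at -207 to -202 and at -125 to -120, within chr3:98593801-98593830 and chr3:98593719-98593748 on the minus strand. Capitals again mark the motif.
UROD: ggttaaattgtggattgagctcgCAGTTAc
CPOX, distal: agaaagcctcttTTATCTctcccgtccctt
CPOX, proximal: cgcgtcggattcTTATCTcccgccccgcgc

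Across the 35116 RefSeq promoters, 17.6% of the 250-base windows held TAACNG on either strand, against 2 of the 10 windows of the 8 members found in the table. AGATAA was held by 9.17% of all windows and 3 of the 10 member windows, and TGATAA by 6.66% of all windows and 0 of the members'. The short MYB core AACNG, which lies within TAACNG, was held by 70.6% of all windows and 7 of the 10. CACCC was held by 54.7% of all windows and 6 of the 10. These are matches of letters, not measured binding. UROS was not in the promoter table.

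By level, UROD was the highest member in all 4 groups, with 67.3% to 74.7% of the members' summed FPKM in each library. ALAS2 was second in each group by its mean. UROD stood at the 98.7th percentile of the tested genes by its mean over all libraries, ALAS2 at the 88.0th, and ALAD, the lowest of the 9, at the 47.5th. In the D152V_Rescue group UROD and ALAS2 were each separate from the next member, and FECH, ALAS1, PPOX and SLC25A38 formed a run in which each neighbour overlapped the next. In MYB-WT_Rescue libraries ALAS2 overlapped FECH, and PPOX, at 9.44 ± 1.30 FPKM, ranked eighth of 9, below UROS and above ALAD, with no overlap with either. In MYB_KnockDown libraries PPOX, at 36.3 ± 19.9 FPKM, overlapped its neighbours SLC25A38 and FECH. PPOX varied most, with a highest-to-lowest ratio of 7.12 over the 12 libraries. ALAS2 followed at 3.99, and FECH varied least at 1.65.

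**Figure D1:**
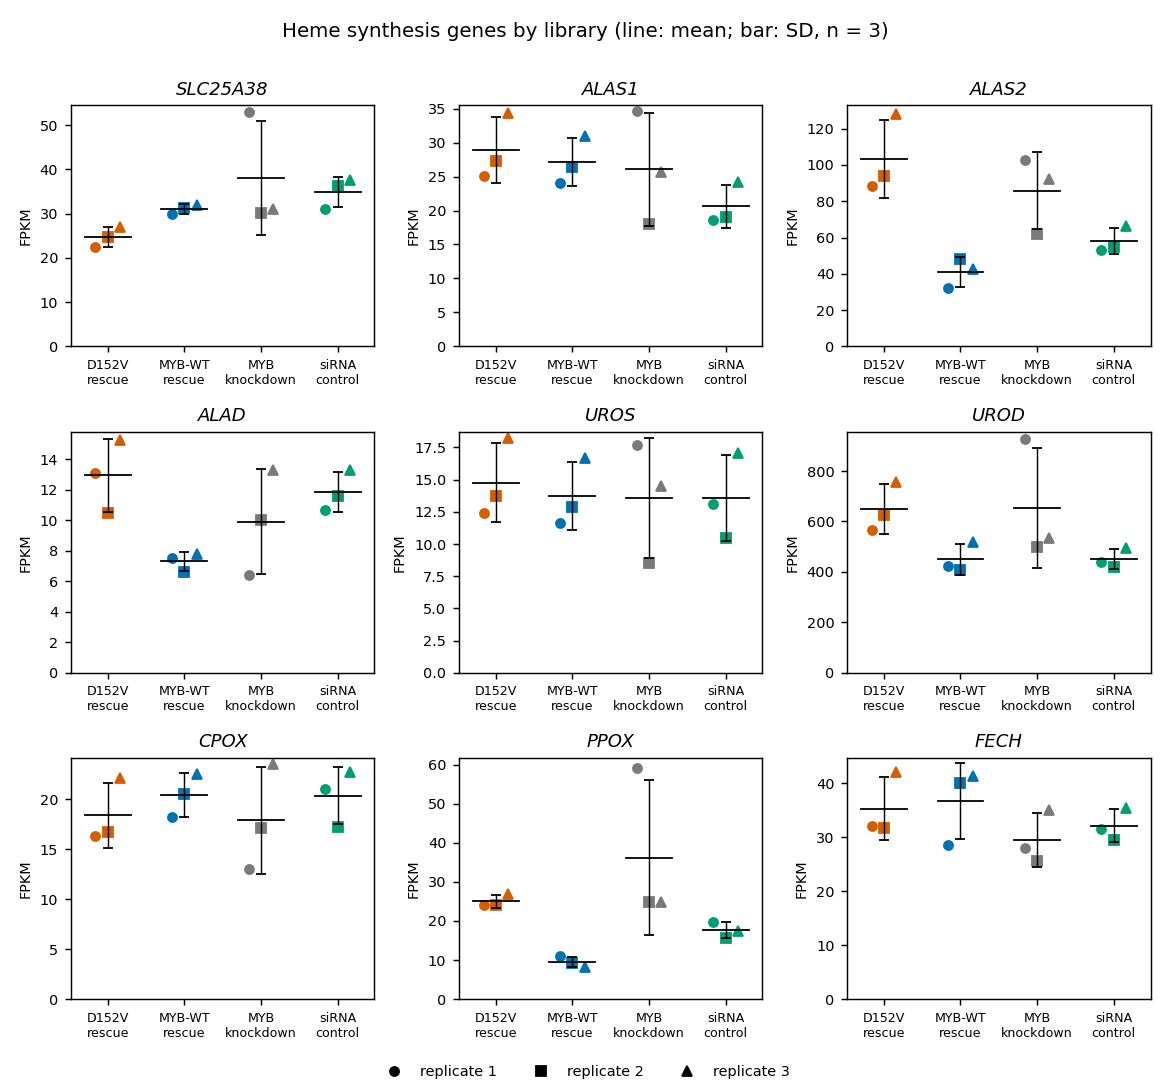
FPKM of each heme synthesis gene in the 12 libraries, by group, with points for libraries, lines for means and bars for the SD (n = 3). ALAS2 and PPOX are lowest in the MYB-WT_Rescue libraries, whereas the libraries of CPOX, UROS and FECH overlap between groups.

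At the entry of the pathway, ALAS2 changed between groups, and no ALAS1 difference passed the test with all 12 libraries. All 9 genes are protein coding, and their positions are those of RefSeq on GRCh38. ALAS2 (chrX:55009055-55030977, minus strand) measured 88.6, 93.7 and 128 FPKM in D152V_Rescue libraries, 32.1, 48.3 and 42.9 in MYB-WT_Rescue, 103, 62.1 and 92.3 in MYB_KnockDown, and 53.4, 54.9 and 66.1 in siRNA_Control. The D152V_Rescue libraries lay above all MYB-WT_Rescue and all siRNA_Control libraries and overlapped the knockdown, while the MYB-WT_Rescue libraries lay below those of every other group. ALAS2 was 2.52-fold higher in D152V_Rescue than in MYB-WT_Rescue libraries by mean FPKM. On the log2(FPKM + 1) scale, which understates changes of low genes and on which all tests were run, the change was 1.31 ± 0.22 (SE, limma adjusted p = 0.00214). It fell by 1.03 ± 0.22 in MYB-WT_Rescue against MYB_KnockDown (limma adjusted p = 0.00441), and by 0.89 without MYB_KnockDown replicate 1 (limma adjusted p = 0.00567). Against siRNA_Control it was 0.81 ± 0.22 higher in D152V_Rescue (limma adjusted p = 0.0384). This call was lost without a filter on low values (0.0771), and without any 1 of the 3 siRNA_Control libraries (0.137, 0.132 and 0.0639), MYB-WT_Rescue replicate 3 (0.0557) or any 1 of the D152V_Rescue libraries (0.0580, 0.0797 and 0.163). In these bulk libraries, a change in the share of hemoglobin-making cells and a change in RNA per cell cannot be told apart.

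The K-562 marker list, which holds globins, spread in the same direction between the rescue lines by its sum. Its summed level was 2211 to 3768 FPKM in D152V_Rescue, 965 to 2010 in MYB-WT_Rescue, 1780 to 5913 in MYB_KnockDown and 1362 to 2860 in siRNA_Control libraries. HBE1, at up to 3300 FPKM, and HBZ, at up to 2605, reached the highest values of the list. GATA1 and KLF1 averaged 124 and 50.8 FPKM in D152V_Rescue and 91.0 and 45.0 in MYB-WT_Rescue libraries, whereas TAL1 averaged 34.4 and 39.9. Of the 10 listed markers, 4 had an unadjusted limma p under 0.05 between these lines, beside 25.0% of all tested genes. The monocyte list spread the other way, with 3.65 to 5.15 FPKM in D152V_Rescue and 10.8 to 14.1 in MYB-WT_Rescue libraries. It had 8.26 to 27.7 in MYB_KnockDown and 15.7 to 24.3 in siRNA_Control libraries. The epithelial list, nearly all EPCAM, had 32.1 to 36.1 FPKM in D152V_Rescue, 51.9 to 72.7 in MYB-WT_Rescue, 43.0 to 126 in MYB_KnockDown and 55.9 to 59.1 in siRNA_Control libraries. The lymphoid list, with MS4A1 at 0 throughout, had 2.40 to 2.96 FPKM in D152V_Rescue, 1.42 to 1.95 in MYB-WT_Rescue, 2.05 to 3.53 in MYB_KnockDown and 2.45 to 2.90 in siRNA_Control libraries. Their part in the ALAS2, PPOX and ALAD results was not tested.

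ALAS1 (chr3:52198083-52214327, plus strand) measured 25.1, 27.3 and 34.4 FPKM in D152V_Rescue, 24.0, 26.4 and 31.0 in MYB-WT_Rescue, 34.6, 18.0 and 25.7 in MYB_KnockDown, and 18.6, 19.0 and 24.2 in siRNA_Control libraries. The D152V_Rescue libraries lay above all siRNA_Control libraries, and the other groups overlapped. Its log2 difference between D152V_Rescue and MYB-WT_Rescue was 0.09, with a 95% interval of -0.39 to 0.56. For D152V_Rescue against siRNA_Control it was 0.47 (limma adjusted p = 0.230). The same difference passed without MYB_KnockDown replicate 1 (limma adjusted p = 0.0492) and with only the 6 libraries compared (0.0418).

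The relation between the synthases followed ALAS2. ALAS2 made up 78.1% ± 0.716 of the summed ALAS1 and ALAS2 FPKM in D152V_Rescue, 60.0% ± 4.12 in MYB-WT_Rescue, 76.8% ± 1.80 in MYB_KnockDown and 73.9% ± 0.609 in siRNA_Control libraries (SD, n = 3 each). The highest MYB-WT_Rescue library had a share of 64.7%, and the lowest of the other 9 libraries had 73.2%. This share uses the same ALAS2 values as the test and is a description.

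**Figure D2:**
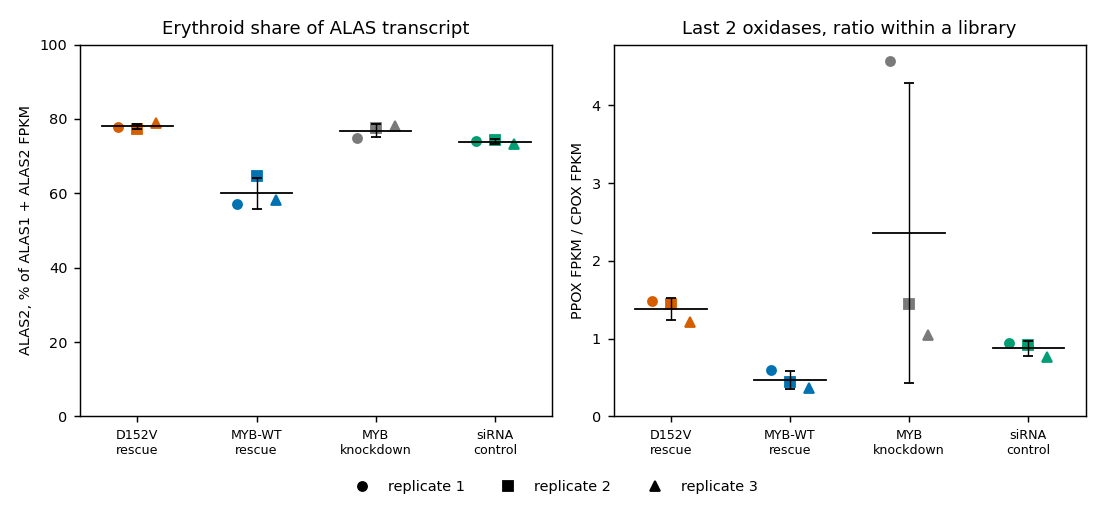
Share of ALAS2 in the summed ALAS1 and ALAS2 FPKM (percent) and the ratio of PPOX to CPOX FPKM, with points for libraries, lines for means and bars for the SD (n = 3) by group. The MYB-WT_Rescue libraries are lowest in both, at 57.2% to 64.7% and at ratios of 0.368 to 0.598, and MYB_KnockDown replicate 1 has the highest ratio, 4.57.

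SLC25A38 (chr3:39383370-39397351, plus strand), the glycine carrier, passed no test in the fit of all 12 libraries to log2(FPKM + 1). It measured 22.5, 24.8 and 27.0 FPKM in D152V_Rescue, 29.8, 31.2 and 32.0 in MYB-WT_Rescue, 52.9, 30.2 and 31.0 in MYB_KnockDown, and 31.1, 36.2 and 37.5 in siRNA_Control libraries. Every D152V_Rescue library lay below every library of the 3 other groups. The log2 differences of D152V_Rescue were -0.32 against MYB-WT_Rescue (95% interval -0.73 to 0.09), -0.55 against MYB_KnockDown (-0.97 to -0.14) and -0.48 against siRNA_Control (-0.89 to -0.07). Their limma adjusted p-values were 0.343, 0.0502 and 0.153 with all libraries. Without MYB_KnockDown replicate 1 the limma adjusted p-values were 0.0191, 0.0387 and 0.00235, and the difference against the knockdown was -0.30 instead of -0.55. That difference also passed after quantile normalization (limma adjusted p = 0.0195), by median-ratio scaling (0.0434), with the length trend removed (0.0486) and without MYB_KnockDown replicate 2 (0.0265) or 3 (0.0294).

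In the cytosolic steps, ALAD (chr9:113386312-113401284, minus strand) was the member that changed. It measured 13.1, 10.5 and 15.3 FPKM in D152V_Rescue, 7.50, 6.63 and 7.79 in MYB-WT_Rescue, 6.43, 10.0 and 13.3 in MYB_KnockDown, and 10.7, 11.6 and 13.3 in siRNA_Control libraries. All MYB-WT_Rescue libraries lay below all D152V_Rescue and all siRNA_Control libraries, and the knockdown overlapped each group. ALAD was 1.77-fold higher in D152V_Rescue than in MYB-WT_Rescue libraries by mean FPKM, a log2 change of 0.74 ± 0.22 (SE, limma adjusted p = 0.0483). The call stood close to the threshold and was lost in 11 of 20 alternatives. Its adjusted p was 0.0848 without a filter on low values, 0.0693, 0.0725 and 0.0666 without siRNA_Control replicates 1, 2 and 3, and 0.0590 without MYB_KnockDown replicate 2. It was 0.110, 0.164 and 0.0907 without MYB-WT_Rescue replicates 1, 2 and 3, and 0.129, 0.0538 and 0.174 without D152V_Rescue replicates 1, 2 and 3. Without MYB_KnockDown replicate 1 it was 0.00281.

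UROS (chr10:125784980-125823258, minus strand), which closes the ring, passed no test unless the replicate block and removal of the length trend were combined. Its libraries ran from 12.4 to 18.2 FPKM in D152V_Rescue, 11.6 to 16.7 in MYB-WT_Rescue, 8.51 to 17.7 in MYB_KnockDown and 10.5 to 17.1 in siRNA_Control, and all groups overlapped. UROS had the widest intervals among the cytosolic members, and its D152V_Rescue minus MYB-WT_Rescue interval of -0.47 to 0.66 allows a change in either direction. With the block and the length trend removed, UROS was 0.48 higher in D152V_Rescue than in MYB_KnockDown (limma adjusted p = 0.0206) and 0.42 higher in MYB-WT_Rescue (0.0265), against differences of 0.15 and 0.06 otherwise.

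UROD (chr1:45012254-45015575, plus strand), the decarboxylase, measured 566, 624 and 757 FPKM in D152V_Rescue, 423, 408 and 519.6 in MYB-WT_Rescue, 929, 497 and 535 in MYB_KnockDown, and 438, 421 and 495 in siRNA_Control libraries. The D152V_Rescue libraries lay above all MYB-WT_Rescue and all siRNA_Control libraries. The log2 difference between D152V_Rescue and MYB-WT_Rescue was 0.52 (95% interval 0.03 to 1.02) and did not pass after adjustment (limma adjusted p = 0.171). Without MYB_KnockDown replicate 1 it was also 0.52, with a limma adjusted p of 0.00704. The difference between the rescue lines passed in 5 of 20 alternatives, among them quantile normalization (limma adjusted p = 0.00929), the length trend removed (0.0233), that with the block (0.0144) and only the 6 libraries compared (0.0256). Against siRNA_Control, the D152V_Rescue difference of 0.51 (limma adjusted p = 0.202) passed in the same 5 alternatives. Against MYB_KnockDown it was 0.04, and 0.66 after quantile normalization (limma adjusted p = 0.00359) and 0.40 with the length trend removed (0.0425) or with the block as well (0.0276). For MYB-WT_Rescue against MYB_KnockDown the difference was -0.49 (limma adjusted p = 0.107). It was -0.20 without MYB_KnockDown replicate 1 (limma adjusted p = 0.239) and -0.65 without replicate 2 (0.0444). UROD overlaps HECTD3 on the opposite strand over 375 bases, and the sources used here do not state whether strand was used in quantification. HECTD3 was at 39.5 to 44.4 FPKM in D152V_Rescue, 38.1 to 47.5 in MYB-WT_Rescue, 29.1 to 58.0 in MYB_KnockDown and 34.0 to 36.5 in siRNA_Control libraries.

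In the last mitochondrial steps, PPOX was the member that changed. It measured 24.1, 24.0 and 27.0 FPKM in D152V_Rescue, 10.9, 9.14 and 8.32 in MYB-WT_Rescue, 59.2, 24.8 and 24.8 in MYB_KnockDown, and 19.8, 15.7 and 17.5 in siRNA_Control libraries. The MYB-WT_Rescue libraries lay below those of every other group, and MYB_KnockDown replicate 1 stood far above the other two knockdown libraries. PPOX was 2.65-fold higher in D152V_Rescue than in MYB-WT_Rescue libraries, a log2 change of 1.32 ± 0.27 (SE, limma adjusted p = 0.00810). It fell by 1.72 ± 0.27 in MYB-WT_Rescue against MYB_KnockDown (limma adjusted p = 0.00101), and by 1.31 without MYB_KnockDown replicate 1 (limma adjusted p = 2.03e-05). Against siRNA_Control the knockdown difference was 0.88 (95% interval 0.28 to 1.48, limma adjusted p = 0.0586). Without that replicate it was 0.47, and passed (limma adjusted p = 0.0193).

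PPOX lies on the plus strand at chr1:161165728-161178013 and overlaps B4GALT3 on the opposite strand over 6659 bases. B4GALT3, a galactosyltransferase gene, averaged 48.6 ± 1.09 FPKM in D152V_Rescue, 50.2 ± 4.01 in MYB-WT_Rescue, 56.5 ± 3.58 in MYB_KnockDown and 58.3 ± 3.34 in siRNA_Control libraries (SD, n = 3 each). It passed no test, and its log2 difference between D152V_Rescue and MYB-WT_Rescue was -0.04 (95% interval -0.27 to 0.18). Whether B4GALT3 fragments were counted for PPOX was not tested. Both RefSeq promoter windows of PPOX lie downstream of the first base of the gene's annotated span.

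CPOX (chr3:98570488-98593611) and FECH (chr18:57544377-57586702), both on the minus strand, act just before and just after PPOX and passed no test in any comparison. CPOX had 16.3, 16.7 and 22.2 FPKM in D152V_Rescue, 18.2, 20.6 and 22.6 in MYB-WT_Rescue, 13.0, 17.1 and 23.6 in MYB_KnockDown, and 21.1, 17.2 and 22.8 in siRNA_Control libraries. FECH had 32.1, 31.6 and 42.0 FPKM in D152V_Rescue, 28.6, 40.1 and 41.3 in MYB-WT_Rescue, 27.9, 25.5 and 35.1 in MYB_KnockDown, and 31.5, 29.4 and 35.4 in siRNA_Control libraries. All groups overlapped for both genes. The D152V_Rescue minus MYB-WT_Rescue interval was -0.60 to 0.29 for CPOX and -0.44 to 0.34 for FECH. The ratio of PPOX to CPOX averaged 1.38 ± 0.139 in D152V_Rescue, 0.470 ± 0.118 in MYB-WT_Rescue, 2.36 ± 1.93 in MYB_KnockDown and 0.874 ± 0.0929 in siRNA_Control libraries (SD, n = 3 each).

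Counted over the pathway, the comparison of the rescue lines held the most calls. In D152V_Rescue against MYB-WT_Rescue, 3 of 9 members rose and 0 fell, against 12.1% of all tested genes called in either direction, 5.96% called higher and 6.19% called lower. Their library values did not overlap between the groups in 5 of 9 members, against 42.6% of all tested genes. The members' median log2 change was 0.10 and that of all tested genes -0.03. Without MYB_KnockDown replicate 1, a library that shares only the spread of the fit with this comparison, 5 members were called, among them UROD up and SLC25A38 down, and 31.4% of all tested genes were called in place of 12.1%.

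In MYB-WT_Rescue against MYB_KnockDown, 2 of 9 members fell and 0 rose, against 37.6% of all tested genes called, 16.9% lower and 20.6% higher, so the members' share was below the background. Groups did not overlap in 2 of 9 members, against 47.9% of all tested genes. Their median was -0.24 and that of all genes 0.03. Without MYB_KnockDown replicate 1, 3 of 9 members were called lower, with ALAD added at -0.60 (limma adjusted p = 0.0107). In that fit 45.2% of all tested genes were called. D152V_Rescue against siRNA_Control had 1 of 9 called, higher, with 9.55% of all genes called, 4.61% higher and 4.94% lower, so the members' share was close to the background. Groups did not overlap in 5 of 9 members, against 44.4% of all tested genes. It had 0 members called without a filter and 5 without MYB_KnockDown replicate 1, where 27.7% of all tested genes were called.

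The other 3 comparisons had 0 members called by limma. MYB_KnockDown against siRNA_Control had 2 of 9 members at an unadjusted p under 0.05, PPOX and ALAS2, beside 32.0% of all tested genes, with 11.3% of all genes called, 3.94% higher and 7.38% lower. Groups did not overlap in 2 of 9 members, against 36.5% of all tested genes. D152V_Rescue against MYB_KnockDown had 1 of 9, SLC25A38, beside 40.6%, with 25.1% of all genes called, 13.0% higher and 12% lower. Groups did not overlap in 1 of 9 members, against 42.7% of all tested genes. MYB-WT_Rescue against siRNA_Control had 3 of 9, PPOX, ALAD and ALAS2, beside 23.6%, with 9.62% of all genes called, 5.04% higher and 4.58% lower. Groups did not overlap in 3 of 9 members, against 44.8% of all tested genes. Without MYB_KnockDown replicate 1 the called members were PPOX in the first, SLC25A38 in the second, and PPOX and ALAD in the third, where 20.1%, 32.4% and 29.7% of all tested genes were called in the same order. These comparisons share libraries, so their values are not independent of each other.

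**Figure D3:**
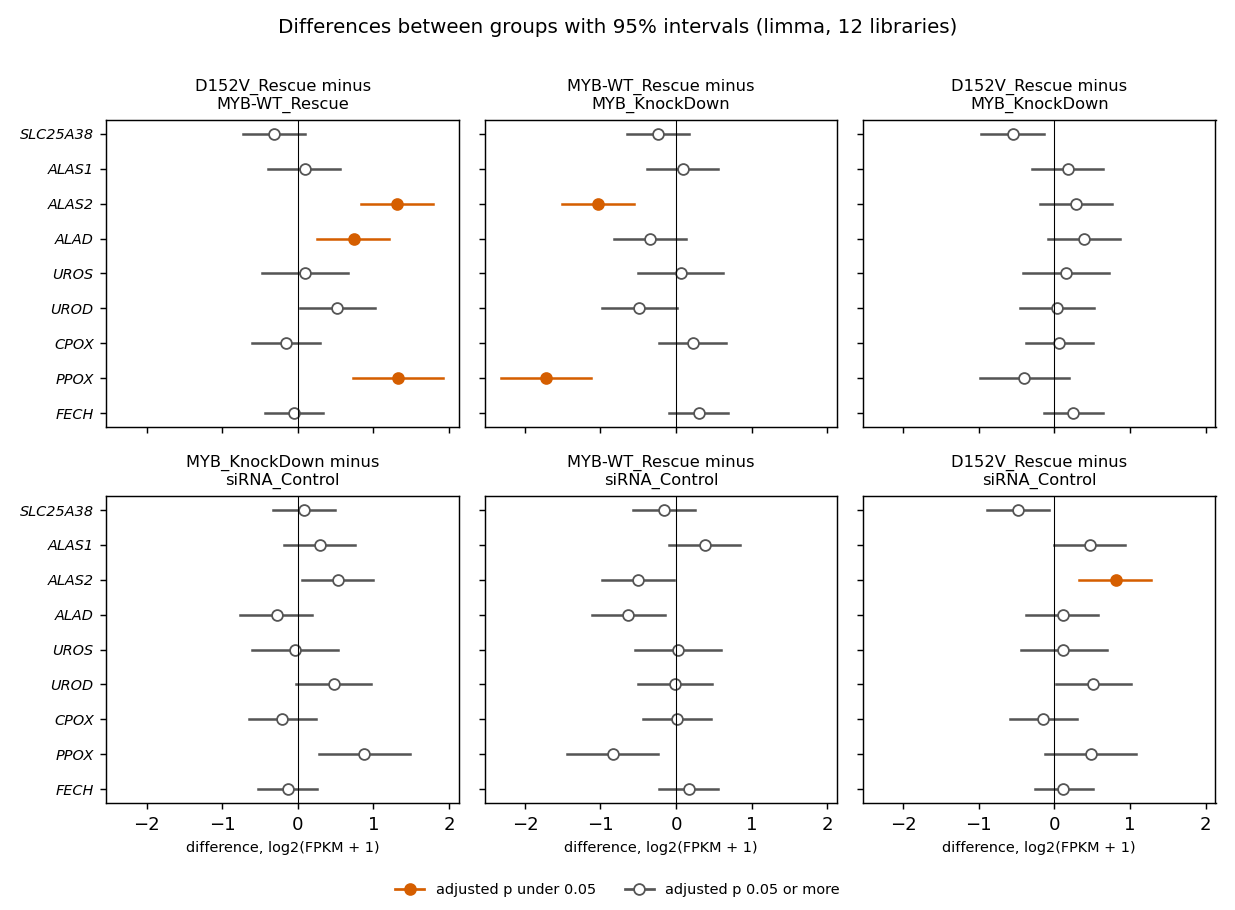
Log2 difference of each member in the 6 comparisons, on the log2(FPKM + 1) scale, with bars for the 95% interval and filled points for an adjusted p under 0.05. ALAS2, PPOX and ALAD are filled in D152V_Rescue against MYB-WT_Rescue, at 1.31, 1.32 and 0.74, and ALAS2 and PPOX in MYB-WT_Rescue against MYB_KnockDown, at -1.03 and -1.72.

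Over the 12 libraries ALAS2 correlated with PPOX at r = 0.80 and with UROD at r = 0.80, and over the 11 libraries without MYB_KnockDown replicate 1 at 0.83 and 0.84. ALAD correlated with ALAS2 at 0.52 and with PPOX at 0.23 over 12 libraries, and at 0.81 and 0.83 over 11. ALAS1 correlated with UROS at 0.82 and CPOX with FECH at 0.72 over 12 libraries. PPOX and FECH had an r of -0.42 over 12 and -0.29 over 11 libraries. Libraries share groups and experiments, so these values are descriptions. Replicate 3 was the highest library for all 9 members in D152V_Rescue, for 7 in MYB-WT_Rescue and for 8 in siRNA_Control, whereas in MYB_KnockDown it was highest for 3 and replicate 1 for 6.

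By likeness, the 2 genes most correlated with each member among 9117 others with a mean of at least 5 FPKM were taken. For ALAS2 these were OBSL1 (r = 0.954 over 12 libraries, 0.952 over 11) and IL18 (0.950 and 0.944). IL18, which codes for a cytokine, averaged 40.0 ± 14.2 FPKM in D152V_Rescue, 2.68 ± 0.369 in MYB-WT_Rescue, 21.3 ± 13.0 in MYB_KnockDown and 8.64 ± 0.368 in siRNA_Control libraries (SD, n = 3 each). For PPOX they were WDR45 (0.974 and 0.953) and VBP1 (0.973 and 0.953), and for ALAD MFGE8 (0.928 and 0.934) and CAVIN2 (0.921 and 0.922). For FECH they were EIF2AK1 (0.921 and 0.914), which codes for the heme-regulated inhibitor kinase, and LRRC8D (0.894 and 0.882).

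For the other members the likest genes were PDIA3 and PUS1 for SLC25A38 (r = 0.974 and 0.968 over 12 libraries), and SLC18B1 and MPHOSPH8 for ALAS1 (0.942 and 0.930). They were MTHFD2L and TAF7 for UROS (0.925 and 0.895), PELO and SERPINB6 for UROD (0.960 each), and SCLT1 and MEF2C for CPOX (0.927 and 0.918). The highest of 9117 correlations is high by selection, and these are descriptions.

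Around the pathway, genes that carry heme, porphyrins or their precursors, or that serve the same mitochondrial steps, were listed from general knowledge. Of 20 listed genes 19 were tested (FLVCR2 reached at most 0.0728 FPKM). In D152V_Rescue against MYB-WT_Rescue 1 rose and 2 fell, in MYB-WT_Rescue against MYB_KnockDown 1 rose and 8 fell, and in D152V_Rescue against MYB_KnockDown 2 rose and 4 fell. These are 3, 9 and 6 of 19 genes, beside 12.1%, 37.6% and 25.1% of all tested genes called. The median log2 changes were -0.01, -0.39 and -0.26, beside -0.03, 0.03 and 0.02 for all tested genes. ABCG2, an exporter of porphyrins and heme, averaged 3.12 ± 0.691 FPKM in D152V_Rescue, 0.0962 ± 0.0567 in MYB-WT_Rescue, 0.562 ± 0.225 in MYB_KnockDown and 0.194 ± 0.0192 in siRNA_Control libraries (SD, n = 3 each). It rose by 1.90 ± 0.16 on the log2 scale in D152V_Rescue against MYB-WT_Rescue (limma adjusted p = 1.80e-05), a call kept in all 20 alternatives. It was tested because of the D152V_Rescue libraries alone, as no other library reached 1 FPKM. Its inclusion already required a difference, and the call is no independent support. ABCG2 is among the 3, 9 and 6 called genes counted above, so each of these counts holds a gene included in this way.

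ABCB10, a mitochondrial transporter that supports heme synthesis in red cell precursors, fell by 0.84 ± 0.19 in D152V_Rescue against MYB-WT_Rescue (limma adjusted p = 0.0121). It averaged 12.8 ± 1.56 FPKM in D152V_Rescue and 23.8 ± 2.53 in MYB-WT_Rescue libraries, and over the 20 alternatives its adjusted p reached 0.0564, with the call lost without MYB-WT_Rescue replicate 2 or D152V_Rescue replicate 3. SLC25A39, a mitochondrial glutathione carrier, averaged 91.4 ± 4.13 FPKM in D152V_Rescue, 98.0 ± 9.76 in MYB-WT_Rescue, 170.2 ± 26.9 in MYB_KnockDown and 145 ± 10.8 in siRNA_Control libraries. It fell by 0.88 in D152V_Rescue and by 0.78 in MYB-WT_Rescue against MYB_KnockDown (limma adjusted p = 0.00143 and 0.00145). ABCB6, a porphyrin transporter, GLRX5, which serves iron-sulfur clusters, and SUCLG1, a subunit of the enzyme that interconverts succinyl-CoA and succinate, fell by 0.96, 0.88 and 0.80 in MYB-WT_Rescue against MYB_KnockDown (limma adjusted p = 0.00951, 0.0348 and 0.0179). They fell by 0.62, 0.43 and 0.46 when MYB_KnockDown replicate 1 was left out (limma adjusted p = 0.00171, 0.00635 and 0.00118). These 3 calls were lost in 1, 7 and 2 of 20 alternatives, with adjusted p up to 0.0737, 0.144 and 0.108. GLRX5 also fell by 0.91 in D152V_Rescue against MYB_KnockDown (limma adjusted p = 0.0429), a call lost in 13 alternatives. That fall was 0.45 without MYB_KnockDown replicate 1 (limma adjusted p = 0.00747). ABCB6 and SUCLG1 were not called there, at -0.26 and -0.58 (limma adjusted p = 0.429 and 0.0780).

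**Figure D4:**
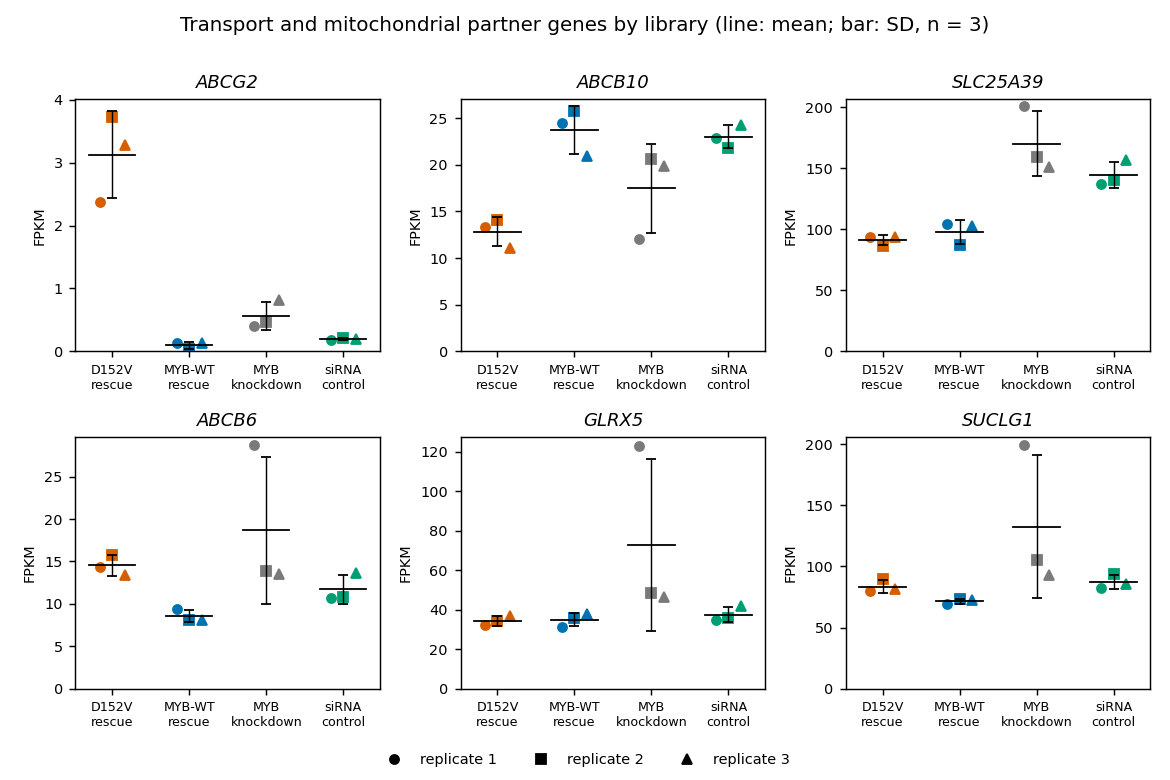
FPKM of 6 transport and mitochondrial partner genes in the 12 libraries, by group, with points for libraries, lines for means and bars for the SD (n = 3). ABCG2 is highest in the D152V_Rescue libraries, SLC25A39 is lower in both rescue lines than in the other groups, and for ABCB6, GLRX5 and SUCLG1 MYB_KnockDown replicate 1 lies far above the other libraries.

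Of 13 genes of heme breakdown, heme sensing and ALAS1 repression, 12 were tested (HMOX1 reached at most 0.0521 FPKM). Between the rescue lines 0 were called by limma, with 3 of 12 at an unadjusted p under 0.05 beside 25.0% of all tested genes, and a median log2 change of -0.03, the same as that of all tested genes. In MYB_KnockDown against siRNA_Control 1 of 12 rose and 2 fell, beside 11.3% of all tested genes called, with a median of -0.08 beside -0.03. BLVRB, a biliverdin reductase, rose by 0.94 (limma adjusted p = 0.0343), and NR1D2 and NR1D1, nuclear receptors for heme, fell by 0.67 and 0.60 (limma adjusted p = 0.0288 and 0.0439). The changes were 0.58, -0.71 and -0.50 when MYB_KnockDown replicate 1 was left out (limma adjusted p = 0.00318, 0.0149 and 0.0537). These calls were lost in 10, 8 and 14 of 20 alternatives, with adjusted p up to 0.203, 0.186 and 0.174. In D152V_Rescue against MYB_KnockDown, BLVRA, the other biliverdin reductase, fell by 0.81 and IREB2, the iron regulatory protein, rose by 0.52 (limma adjusted p = 0.0335 and 0.0314, lost in 8 and 7 alternatives). Without that library the changes were -0.51 and 0.33 (limma adjusted p = 0.0416 and 0.0166).

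Of 16 erythroid and mitochondrial regulators of the synthases, 15 were tested (PPARGC1A reached at most 0.234 FPKM). In D152V_Rescue against MYB-WT_Rescue 0 rose and 2 fell, and in MYB-WT_Rescue against MYB_KnockDown 6 rose and 1 fell. These are 2 and 7 of 15 genes, beside 12.1% and 37.6% of all tested genes called. The median log2 changes were -0.05 and 0.32, beside -0.03 and 0.03 for all tested genes. LMO2, a partner of GATA1 and TAL1, ran from 9.33 to 12.7 FPKM in D152V_Rescue, 25.1 to 29.2 in MYB-WT_Rescue, 9.64 to 13.7 in MYB_KnockDown and 22.3 to 31.1 in siRNA_Control libraries. It fell by 1.22 ± 0.17 in D152V_Rescue against MYB-WT_Rescue (limma adjusted p = 7.35e-04), a call kept in all 20 alternatives. ZFPM1, a GATA1 cofactor, averaged 5.03 ± 0.480 FPKM in D152V_Rescue, 10.0 ± 3.74 in MYB-WT_Rescue, 3.53 ± 1.13 in MYB_KnockDown and 4.82 ± 0.414 in siRNA_Control libraries. It was 0.82 lower in D152V_Rescue than in MYB-WT_Rescue (limma adjusted p = 0.0444), a call lost in 11 alternatives. Against siRNA_Control it was 0.88 higher in MYB-WT_Rescue (limma adjusted p = 0.0394, lost in 9) and 0.05 higher in D152V_Rescue (0.948). It rose by 1.27 in MYB-WT_Rescue against MYB_KnockDown (limma adjusted p = 0.00242), a call kept in all 20 alternatives. In MYB-WT_Rescue against MYB_KnockDown, LDB1, HIF1A and PPRC1 rose by 1.20, 0.85 and 0.59 (limma adjusted p = 0.00638, 0.0348 and 0.00563, lost in 1, 6 and 2 alternatives). Leaving out MYB_KnockDown replicate 1 gave 0.77, 0.42 and 0.59 (limma adjusted p = 2.89e-05, 0.00830 and 0.00326). In D152V_Rescue against MYB_KnockDown, LDB1 was also called, at 0.93 (limma adjusted p = 0.0301, lost in 5). HIF1A and PPRC1 were not, at 0.80 and 0.30 (limma adjusted p = 0.0567 and 0.105). The LDB1 rise there was 0.50 without MYB_KnockDown replicate 1 (limma adjusted p = 7.18e-04). EPAS1 rose by 1.22 in D152V_Rescue against MYB_KnockDown (limma adjusted p = 0.0162, lost in 2), and by 0.76 without that library (limma adjusted p = 0.00181).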

How the data were processed

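RNA of K-562 cells was sequenced as 125-bp paired-end reads from stranded poly(A) TruSeq libraries, per the labels' protocols and design text. The authors deposited FPKM values per gene in 1 table of 60658 rows. The software, per the submitters' processing notes, included Cufflinks 2.2.1 and TopHat2 2.0.13, with GRCh38, and Trimmomatic 0.33 and bcl2fastq 2.17.1.14. The sources used here state neither the annotation nor whether strand was used. FPKM depends on the transcript length assumed and on a library's most abundant transcripts, and the overlap of PPOX with B4GALT3 could move its value. A median of 4.9% of the ratios of low values between libraries lay within 2% of their median, so read counts could not be recovered, depth is unknown and no count model was used.

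Groups and replicate numbers came from the sample titles. Genes with at least 1 FPKM in at least 3 libraries (13393) were analysed as log2(FPKM + 1) in 1 limma 3.58.1 fit of all 12 libraries (R 4.3.3), with group means and a variance trend. The fit shares 1 spread, so a library of any group can move every comparison. The 6 contrasts were adjusted by Benjamini-Hochberg over all tested genes, with calls at an adjusted p under 0.05. The procedure was tested on simulated data with independent normal noise and no outlying library. That test does not cover a library such as MYB_KnockDown replicate 1. Tables and figures used Python 3.11.15, pandas 2.3.3 and matplotlib 3.10.9. Coordinates and promoters are those of NCBI RefSeq on GRCh38.p14. The members and gene lists were chosen with earlier results of these data known. Named genes were the 9 members, MYB, up to 6 called genes of each list by size of change, and the 2 genes most correlated with each member.

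Deviations from group means correlated between same-numbered libraries of the rescue lines at r of 0.153 to 0.233, and other pairs at -0.22 to 0.062. The title numbers were therefore taken to pair these 2 groups. Deviations within a group cancel, which lowers the r of other pairs where same-numbered pairs correlate. What same-numbered libraries share was not tested. The 5 other pairs of groups had at least 1 same-numbered pair under 0.1. Among them, MYB_KnockDown and siRNA_Control also had every same-numbered r, 0.038 to 0.132, above the others, -0.146 to 0.031, so pairing there is undecided. The main fit holds no replicate block. With it, the limma adjusted p between the rescue lines was 0.00306 for ALAS2, 0.00616 for PPOX and 0.0257 for ALAD. Each result was recomputed with no filter, a pseudocount of 0.1, quantile normalization, median-ratio scaling, the replicate block, correction of the length trend per library, both together, only the 6 libraries compared, and leaving out each library.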

Additional observations from a re-analysis of the deposited data

Results flagged for a closer look

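The 2 rescue lines differed for 3 heme synthesis genes, by the limma contrast between them, in which the shared knockdown libraries cancel. The MYB form, the MYB level and the single stable line cannot be told apart. ALAS2 had a log2 difference of 1.31 for D152V_Rescue minus MYB-WT_Rescue, PPOX one of 1.32 and ALAD one of 0.74, the last called in 9 of 20 alternatives. Against MYB_KnockDown, the ALAS2 change was 0.28 in D152V_Rescue and -1.03 in MYB-WT_Rescue, and the PPOX change -0.40 and -1.72. The ALAD change was 0.39 in D152V_Rescue and -0.35 in MYB-WT_Rescue. Without MYB_KnockDown replicate 1, the D152V_Rescue and MYB-WT_Rescue changes were 0.43 and -0.89 for ALAS2 and 0.01 and -1.31 for PPOX. For ALAD they were 0.14 and -0.60. Against siRNA_Control, with all libraries, the MYB-WT_Rescue changes were -0.50 for ALAS2, -0.84 for PPOX and -0.63 for ALAD. None was called (limma adjusted p = 0.185, 0.0787 and 0.0966), though they were called in 1, 5 and 3 of 20 alternatives. The D152V_Rescue changes against siRNA_Control were 0.81, 0.48 and 0.11 in the same order (limma adjusted p = 0.0384, 0.351 and 0.860), called in 12, 2 and 0 alternatives. Groups of 3 libraries were too small for a test of single outlying libraries.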

How the results depend on the processing

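ALAS2 and PPOX kept their calls in all 20 alternatives between the rescue lines, with adjusted p of 2.72e-04 to 0.0119 for ALAS2 and 8.49e-06 to 0.0356 for PPOX. They also kept them in MYB-WT_Rescue against MYB_KnockDown, with 0.00190 to 0.0418 and 2.03e-05 to 0.0278. Over all members, comparisons and alternatives, 963 values stayed on their side of the threshold, 49 passed it, 19 no longer did and 49 changed sign, none of the last having been called. The MYB call between the rescue lines (adjusted p = 0.0494) was lost in 16 of 20 alternatives, up to 0.164. Depth is unknown and each group has 3 libraries, so small changes of the members with wide intervals were not detectable.

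Counts of called members moved as follows, and the cause was not tested. MYB_KnockDown against siRNA_Control had 1, PPOX, after quantile normalization, with the replicate block, with the length trend removed and with both together. D152V_Rescue against MYB_KnockDown had 2 after quantile normalization, 1 by median-ratio scaling, 2 with the length trend removed and 2 (UROD and UROS) with that and the block. D152V_Rescue against MYB-WT_Rescue had 5 with only the 6 libraries compared, 4 (UROD added) after quantile normalization, with the length trend removed and with that and the block, 3 with the block alone, and 2 (ALAD lost) without a filter. MYB-WT_Rescue against MYB_KnockDown had 3 (UROS added) with the length trend removed and the block. MYB-WT_Rescue against siRNA_Control had 1 after quantile normalization, 1 with the length trend removed, 2 with that and the block, and 3 with the 6 libraries. D152V_Rescue against siRNA_Control had 0 without a filter, 2 after quantile normalization, 2 with the length trend removed, 2 with that and the block, and 5 with the 6 libraries. Outside the rescue lines, libraries were not taken as paired by number, and the block is given only as a setting.

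Over all genes, the counts for only the 6 libraries compared were 3275 (with all 12, 1627) for D152V_Rescue against MYB-WT_Rescue, 548 (3355) for D152V_Rescue against MYB_KnockDown and 1689 (5031) for MYB-WT_Rescue against MYB_KnockDown. They were 3575 (1279) for D152V_Rescue, 3512 (1289) for MYB-WT_Rescue and 16 (1516) for MYB_KnockDown against siRNA_Control, the last also 738 without a filter. Leaving out 1 library at a time gave 1020 to 4209 genes and 2 to 5 members between the rescue lines, 1639 to 4389 and 0 to 2 for D152V_Rescue against MYB_KnockDown, and 3194 to 6055 and 2 to 3 for MYB-WT_Rescue against MYB_KnockDown. Against siRNA_Control it gave 725 to 3706 and 0 to 5 for D152V_Rescue, 682 to 3973 and 0 to 2 for MYB-WT_Rescue, and 173 to 2697 and 0 to 2 for MYB_KnockDown.

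Some uncalled log2 differences changed sign. In MYB_KnockDown against siRNA_Control, UROS was 0.01 after quantile normalization and by median-ratio scaling, UROD -0.01 after quantile normalization, and FECH 0.15 with the length trend removed, alone or with the block. UROD was 0.08 in MYB-WT_Rescue against MYB_KnockDown after quantile normalization, and 0.08 against siRNA_Control after it and with the length trend removed, alone or with the block. With the length trend removed, alone or with the block, FECH was -0.06 in MYB-WT_Rescue and -0.04 in D152V_Rescue against MYB_KnockDown, and 0.03 between the rescue lines, where it was 0.01 after quantile normalization. Without 1 library at a time, these differences changed sign in at least 1 fit. Between the rescue lines they ran from -0.04 to 0.18 for ALAS1, -0.05 to 0.23 for UROS and -0.21 to 0.04 for FECH. For D152V_Rescue against MYB_KnockDown they ran from -0.05 to 0.40 for ALAS1, -0.13 to 0.36 for UROS, -0.13 to 0.32 for UROD, -0.14 to 0.27 for CPOX and -0.60 to 0.01 for PPOX. For MYB-WT_Rescue against MYB_KnockDown they ran from -0.38 to 0.02 for SLC25A38, -0.14 to 0.31 for ALAS1 and -0.22 to 0.27 for UROS. For D152V_Rescue against siRNA_Control they ran from -0.01 to 0.24 for ALAD, -0.04 to 0.29 for UROS and -0.01 to 0.19 for FECH. For MYB-WT_Rescue against siRNA_Control they ran from -0.13 to 0.19 for UROS, -0.12 to 0.06 for UROD, -0.10 to 0.09 for CPOX and -0.05 to 0.12 for MYB. For MYB_KnockDown against siRNA_Control they ran from -0.18 to 0.21 for SLC25A38 and -0.24 to 0.25 for UROS.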
